A study of Mus musculus with 18 samples.

Results

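The collagen chain genes encode the α chains of the collagens and were taken here as every annotated symbol made of Col, a number, the letter a and a number. The arrays measured 42 such genes of 18193 genes in all, through 82 probe sets, and a gene's value is that of its probe set with the highest mean signal across 18 arrays. Of the 42 genes, 24 lay above the filter on low signal, which left out the 40% of genes with the lowest mean and kept 10916. Col6a6 and Col28a1 were in the class lists and had no probe set here.

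Collagen chains wind around each other in the endoplasmic reticulum to form a helix, which is secreted, trimmed and crosslinked in the extracellular matrix. Fibrillar collagens build the cable-like fibrils of connective tissue, type IV collagens build the sheet of the basement membrane, type VI forms beaded filaments, and fibril-associated collagens (FACITs) sit on the surface of fibrils. In lung, fibroblasts and other mesenchymal cells are known as the main source of fibrillar collagen, while epithelium, endothelium and mesothelium rest on a basement membrane that holds type IV chains.

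The study compared side population (SP) cells, known for pumping out a DNA dye, with the remaining nonSP cells of A2C12, betaD5 and cRAF_cMYC. These are mouse lung carcinoma lines that transformed spontaneously in culture, derived from tumours of 8-month-old mice carrying both a c-myc and a c-raf transgene. All 6 groups, nonSP and SP cells of each line, share that double transgenic origin, no normal lung cells were analysed here, and each group had 3 arrays from 200 ng of total RNA. Arrays of one line with one replicate number are called a pair, since SP and nonSP arrays of one number deviated together from their group means. The labels give neither the promoter of the transgenes nor whether replicates were separate cultures or sorts, so p-values measure the spread between these samples only, which may be technical.

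The medians of the deposited log2 values ran from 5.8 to 6.72 over the 18 arrays, and values below are log2 signals after quantile normalisation. The pair labelled betaD5 1 and the pair labelled cRAF_cMYC 3 went against their labels over all genes. An array labelled betaD5 1 correlated at up to 0.984 with cRAF_cMYC arrays and at no more than 0.926 with betaD5 arrays of another number, and an array labelled cRAF_cMYC 3 at up to 0.988 with betaD5 arrays and at no more than 0.933 with its own line. Lines are therefore named as labelled, and line results are given with and without both pairs. Of 9 markers of lung and airway epithelium, Epcam, Sftpb, Krt8, Krt18 and Krt19 passed the filter, while Cdh1, the surfactant gene Sftpc, the lung regulator Nkx2-1 and the club cell gene Scgb1a1 lay below it. The mean of these 9 ran from 7.32 to 7.77 in the A2C12 pairs, from 6.93 to 7.33 in betaD5 and from 6.69 to 7.15 in cRAF_cMYC. Cdh1, which encodes E-cadherin, ran from 6.19 to 7.15 in A2C12, from 4.20 to 4.75 in betaD5 and from 3.64 to 4.40 in cRAF_cMYC. Epcam was not lower outside A2C12, at 8.40 to 8.69 in A2C12, 8.83 to 9.41 in betaD5 and 8.67 to 9.27 in cRAF_cMYC. None of the 5 epithelial markers above the filter was called in either line by limma. The mean of 4 mesothelial markers (Msln, Upk3b, Wt1, Lrrn4) ran from 5.55 to 5.74 in the A2C12 pairs, from 10.56 to 11.60 in betaD5 and from 10.16 to 11.61 in cRAF_cMYC, and all 4 differed from A2C12 in both lines by limma. The mean of 9 fibroblast markers ran from 7.14 to 7.37 in A2C12, from 7.60 to 10.16 in betaD5 and from 7.82 to 10.35 in cRAF_cMYC, and 3 of the 6 above the filter differed in each line. Of all genes tested, 28.2% were called in betaD5 and 22.9% in cRAF_cMYC. The mean of 6 smooth muscle and pericyte markers ran from 8.35 to 8.49 in A2C12, from 7.71 to 8.39 in betaD5 and from 7.51 to 8.96 in cRAF_cMYC. Of these, Rgs5 stood at 11.01 to 11.73 in A2C12, 4.50 to 9.71 in betaD5 and 4.48 to 10.63 in cRAF_cMYC. Tagln went the other way, at 6.30 to 6.90 in A2C12, 8.44 to 9.72 in betaD5 and 7.37 to 10.89 in cRAF_cMYC. Of the 5 above the filter, 0 were called in betaD5 and 1 in cRAF_cMYC. Means of 5 endothelial markers lay between 4.93 and 5.27, and means of 5 leukocyte markers between 5.95 and 6.30. None of these above the filter was called in either line. The part of these differences between lines in the collagen results was not tested.

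RefSeq promoter windows (GRCm38.p6) were found for 33 of the 42 genes, and 4 are printed because their genes carry the contrasts described below. Col1a2 was higher outside A2C12 on each of its probe sets, Col4a5 and Col4a6 are transcribed away from each other from starts 1343 bases apart and had different patterns over the pairs, and Col6a3 had the most uneven signal among the pairs of betaD5 and of cRAF_cMYC. Each window holds the 250 bases before the annotated start, read 5′ to 3′ on the strand of the gene. Capitals mark matches on either strand to the CCAAT motif, to the GC box, which reads GGGCGG, and to the TATA motif, which reads TATAAA, and no match overlaps another here. In the Col4a6 window the capitals CCGCCC are the GC box read from the opposite strand. The windows of Col1a2 at chr6:4505368-4505617 on the plus strand, Col4a5 at chrX:141475169-141475418 on the plus strand, Col4a6 at chrX:141474077-141474326 on the minus strand and Col6a3 at chr1:90843972-90844221 on the minus strand were:
Col1a2: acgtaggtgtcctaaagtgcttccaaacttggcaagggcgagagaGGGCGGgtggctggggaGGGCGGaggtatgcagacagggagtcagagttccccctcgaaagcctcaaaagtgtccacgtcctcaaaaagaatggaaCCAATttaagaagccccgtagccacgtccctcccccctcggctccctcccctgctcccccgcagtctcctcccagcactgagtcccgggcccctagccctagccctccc
Col4a5: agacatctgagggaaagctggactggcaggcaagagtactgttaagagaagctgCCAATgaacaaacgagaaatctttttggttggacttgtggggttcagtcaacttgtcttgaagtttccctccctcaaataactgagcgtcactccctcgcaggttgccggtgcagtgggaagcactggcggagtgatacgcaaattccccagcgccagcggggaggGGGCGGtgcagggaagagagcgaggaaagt
Col4a6: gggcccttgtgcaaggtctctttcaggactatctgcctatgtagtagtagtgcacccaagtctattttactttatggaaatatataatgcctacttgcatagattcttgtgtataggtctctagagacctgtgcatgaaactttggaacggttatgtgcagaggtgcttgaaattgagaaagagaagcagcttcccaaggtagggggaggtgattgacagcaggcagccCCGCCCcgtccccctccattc
Col6a3: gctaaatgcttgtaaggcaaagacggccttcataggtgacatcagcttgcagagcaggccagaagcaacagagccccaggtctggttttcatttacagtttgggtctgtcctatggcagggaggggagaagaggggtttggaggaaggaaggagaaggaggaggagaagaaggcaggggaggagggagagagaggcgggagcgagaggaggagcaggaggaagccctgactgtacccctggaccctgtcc
The Col1a2 window held 1 CCAAT match and 2 GC box matches, the Col4a5 window 1 of each, and the Col4a6 window 1 GC box match. The Col6a3 window held none of these letters. Over the 38 windows of all annotated collagen symbols, which include Col6a6 that had no probe set here, CCAAT occurred in 13, GGGCGG in 22 and TATAAA in 5. Among all 32851 windows of this length, CCAAT occurred in 33.8%, GGGCGG in 32.7% and TATAAA in 12.4%. Other collagen genes also lie next to each other in the annotation, namely Col3a1 with Col5a2, Col6a1 with Col6a2, Col4a3 with Col4a4, Col9a1 with Col19a1, and Col6a4, Col6a5 and Col6a6. Col4a1 and Col4a2 start 21 bases apart on opposite strands.

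Between lines as labelled, the collagen differences that passed the test set A2C12 apart from the other lines. In betaD5, 10 collagen genes were higher than in A2C12 and 1 was lower, 11 of the 24 tested, where 28.2% of all genes tested were called (15.2% higher and 13% lower). In cRAF_cMYC, 9 were higher and 1 was lower, 10 of 24, where 22.9% of all genes were called (12.4% higher and 10.5% lower). The higher genes in both were Col4a1, Col4a2, Col5a1, Col5a2, Col1a2, Col6a1, Col6a2, Col8a1 and Col16a1, while Col27a1 was called in betaD5 and not in cRAF_cMYC. The lower gene in both was Col14a1. Col8a1, counted as higher in both, had an A2C12 mean of 5.39, below the filter value. It was tested only because of its signal in the other lines, at means of 7.68 in betaD5 and 8.56 in cRAF_cMYC. Both comparisons share the A2C12 arrays, so they are not independent of each other. The median difference over the 24 genes was 0.16 (log2) in betaD5 and 0.55 in cRAF_cMYC, against 0.03 and 0.02 over all genes tested. Without the pair labelled betaD5 3, the betaD5 count was 7. The share of all genes called in that fit is not given here, so this drop cannot be read as one of collagen genes alone.

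Each line entered the limma fit as 3 means of SP and nonSP, and p-values were adjusted over all 10916 genes. These means give the SP and nonSP fractions equal weight, whatever their share in a culture. Each fraction was measured in bulk, so a change in the share of cells with a transcript and a change in RNA per cell cannot be told apart. On the values as deposited, the median of all genes was 0.72 higher in betaD5 and 0.46 higher in cRAF_cMYC than in A2C12, and 12 and 13 collagen genes were called, 11 and 12 of them higher. On that scale 55.6% of all genes were called in betaD5 (53.4% higher and 2.2% lower) and 28.4% in cRAF_cMYC (25.9% higher and 2.51% lower).

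**Figure D1:**
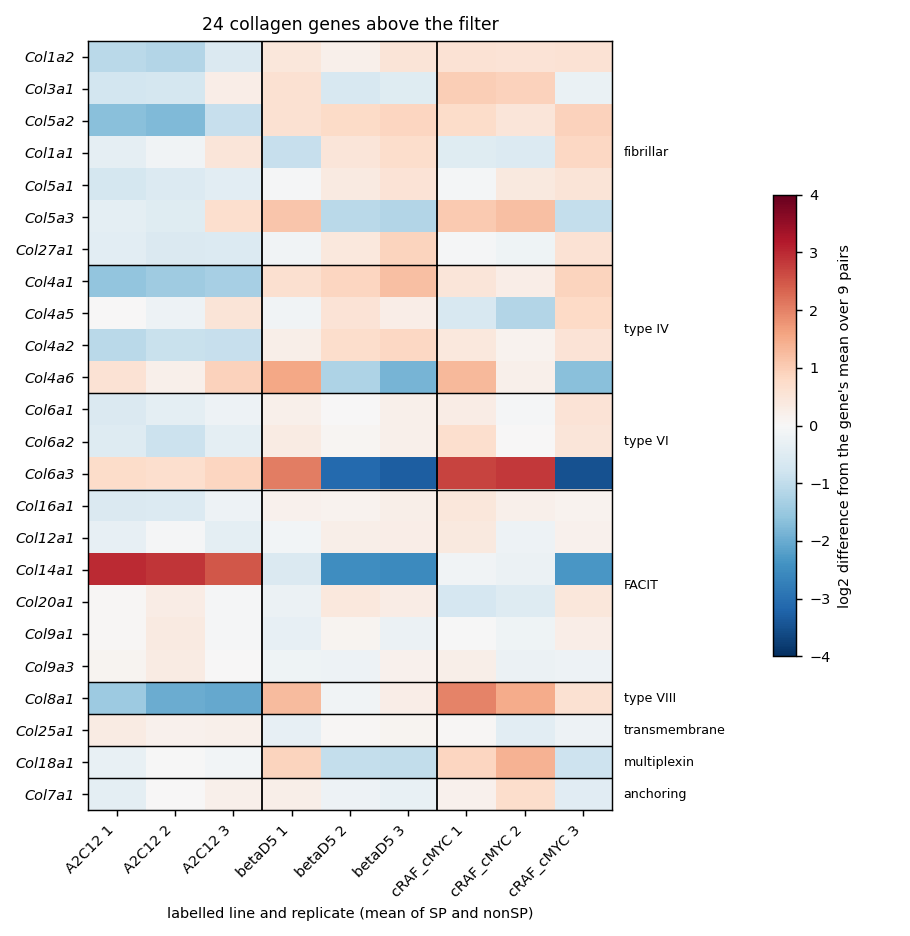
Log2 difference of each of the 24 collagen genes above the filter (rows, grouped by class) from its own mean over the 9 pairs (columns, mean of the SP and nonSP arrays); red is higher and blue is lower. Col14a1 is higher in the 3 A2C12 pairs, Col4a1, Col5a2 and Col8a1 are lower there, and Col6a3 is low in the pairs labelled betaD5 2, betaD5 3 and cRAF_cMYC 3.

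Among the 11 fibrillar chains, 7 were tested, and 4 were higher in betaD5 and 3 in cRAF_cMYC than in A2C12, with none lower. Among all genes tested, 15.2% were called higher and 13% lower in betaD5, and 12.4% and 10.5% in cRAF_cMYC. The median difference over the 7 was 0.84 in betaD5 and 0.83 in cRAF_cMYC. Col1a2, which encodes the α2 chain of type I collagen, was higher in both lines. In A2C12, Col1a2 read 12.77, 12.87 and 13.25 on the nonSP arrays and 12.83, 12.52 and 13.36 on the SP arrays. In betaD5, Col1a2 read 14.41, 14.15 and 14.41 on the nonSP arrays and 14.22, 13.98 and 14.36 on the SP arrays. In cRAF_cMYC, Col1a2 read 14.46, 14.47 and 14.52 on the nonSP arrays and 14.43, 14.37 and 14.37 on the SP arrays. All 12 arrays of betaD5 and cRAF_cMYC lay above all 6 arrays of A2C12. The line means were 12.93 ± 0.32 in A2C12, 14.26 ± 0.17 in betaD5 and 14.44 ± 0.01 in cRAF_cMYC (SD, n = 3 pairs). The difference was 1.32 ± 0.15 (adjusted p = 4.19e-04) in betaD5, a 2.5-fold higher signal, and 1.5 ± 0.15 (adjusted p = 2.60e-04) in cRAF_cMYC, where ± gives the SE of a difference. Its other probe sets differed by 2.11 and 2.79 in betaD5 and by 2.27 and 2.85 in cRAF_cMYC.

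Col1a1 encodes the α1 chain that joins the product of Col1a2 in type I collagen, and it did not pass the test in either line. Its pair means were 11.61, 11.82 and 12.44 in A2C12, 11.05, 12.44 and 12.66 in betaD5 and 11.48, 11.42 and 12.79 in cRAF_cMYC. The difference was 0.10 in betaD5 (95% interval -0.97 to 1.17, adjusted p = 0.896) and -0.06 in cRAF_cMYC (95% interval -1.13 to 1.02, adjusted p = 0.944). The pairs labelled betaD5 1, cRAF_cMYC 1 and cRAF_cMYC 2 lay below every A2C12 pair. The pairs labelled betaD5 3 and cRAF_cMYC 3 lay above every A2C12 pair, and betaD5 2 was level with the highest of them. The other Col1a1 probe set did not share this order, with pair means of 11.50, 11.27 and 11.64 in A2C12, 11.77, 12.04 and 12.12 in betaD5 and 12.12, 11.36 and 12.19 in cRAF_cMYC. Its differences were 0.51 in betaD5 and 0.42 in cRAF_cMYC.

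Col5a2 encodes a chain of type V collagen, which is known to be built into type I fibrils and to limit their width. In A2C12, Col5a2 read 11.22, 11.37 and 12.12 on the nonSP arrays and 11.42, 11.08 and 12 on the SP arrays. In betaD5, Col5a2 read 13.76, 13.80 and 13.80 on the nonSP arrays and 13.42, 13.70 and 13.87 on the SP arrays. In cRAF_cMYC, Col5a2 read 13.76, 13.57 and 13.88 on the nonSP arrays and 13.70, 13.35 and 13.92 on the SP arrays. Again no array of either line overlapped the A2C12 arrays. The difference was 2.19 ± 0.21 (adjusted p = 1.94e-04) in betaD5, 4.55-fold, and 2.16 ± 0.21 (adjusted p = 2.30e-04) in cRAF_cMYC, 4.46-fold. The other Col5a2 probe set differed by 2.93 and 2.66.

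Col5a1, which encodes the α1 chain of type V, was also higher in both lines. In A2C12, Col5a1 read 10.72, 10.75 and 10.90 on the nonSP arrays and 10.48, 10.79 and 10.91 on the SP arrays. In betaD5, Col5a1 read 11.38, 11.91 and 11.91 on the nonSP arrays and 11.18, 11.42 and 11.82 on the SP arrays. In cRAF_cMYC, Col5a1 read 11.32, 11.74 and 11.98 on the nonSP arrays and 11.16, 11.65 and 11.67 on the SP arrays. The lowest array outside A2C12 still lay above the highest A2C12 array. The difference was 0.84 ± 0.20 (adjusted p = 0.0126) in betaD5 and 0.83 ± 0.20 (adjusted p = 0.0165) in cRAF_cMYC. The other probe sets of Col5a1 differed by 0.44 and 0.12 and by 0.43 and 0.11, and with the mean of its probe sets the gene was not called in either line.

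Col27a1, a fibrillar chain known from cartilage, was higher in betaD5. In A2C12, Col27a1 read 8.06, 7.81 and 7.91 on the nonSP arrays and 7.98, 7.93 and 7.92 on the SP arrays. In betaD5, Col27a1 read 8.54, 9.04 and 9.45 on the nonSP arrays and 8.09, 8.69 and 9.24 on the SP arrays. In cRAF_cMYC, Col27a1 read 8.34, 8.44 and 9.09 on the nonSP arrays and 8.44, 8.13 and 8.98 on the SP arrays. The A2C12 arrays were all lower than the others, and the arrays labelled betaD5 3 were the highest. The difference was 0.91 ± 0.28 (adjusted p = 0.0363) in betaD5 and 0.64 ± 0.28 (adjusted p = 0.129) in cRAF_cMYC, where it was not called. The difference between betaD5 and cRAF_cMYC was -0.27 (cRAF_cMYC minus betaD5, 95% interval -0.89 to 0.35). The other Col27a1 probe set differed by 1.47 in betaD5 and 1.24 in cRAF_cMYC, and on it every pair of both lines lay above every A2C12 pair. The betaD5 call was lost with no filter and on SP arrays alone.

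Col3a1, the chain of type III collagen of soft tissues, was not called in either line. In A2C12, Col3a1 read 12.29, 12.86 and 13.50 on the nonSP arrays and 12.60, 12.09 and 13.35 on the SP arrays. In betaD5, Col3a1 read 13.86, 12.49 and 12.64 on the nonSP arrays and 13.70, 12.56 and 12.73 on the SP arrays. In cRAF_cMYC, Col3a1 read 14.13, 14.18 and 12.90 on the nonSP arrays and 14.16, 13.97 and 12.88 on the SP arrays. Its pair means in betaD5 overlapped those of A2C12, while the pairs labelled betaD5 1, cRAF_cMYC 1 and cRAF_cMYC 2 were the highest. The difference was 0.21 ± 0.43 (adjusted p = 0.743) in betaD5 and 0.92 ± 0.43 (adjusted p = 0.155) in cRAF_cMYC. The other Col3a1 probe set differed by -0.22 in betaD5 and 0.76 in cRAF_cMYC. Col5a3, another type V chain, had pair means of 8.59, 8.48 and 9.65 in A2C12, 10.08, 7.90 and 7.80 in betaD5 and 10.01, 10.17 and 8.03 in cRAF_cMYC. Neither line passed the test for it, with differences of -0.31 ± 0.72 (adjusted p = 0.774) and 0.49 ± 0.72 (adjusted p = 0.658).

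The 4 fibrillar chains below the filter were Col2a1, Col11a1, Col11a2 and Col24a1, among which the type II and XI chains are best known from cartilage. Col11a1 had pair means of 6.85, 7.18 and 8.07 in A2C12, 6.62, 5.08 and 4.68 in betaD5 and 6.52, 6.51 and 4.28 in cRAF_cMYC. In a fit with no filter its difference was -1.91 ± 0.67 (adjusted p = 0.0805) in betaD5 and -1.60 ± 0.67 (adjusted p = 0.15) in cRAF_cMYC. A second Col11a1 probe set differed by -3.77 and -2.66. Col2a1, Col11a2 and Col24a1 had means over all arrays of 6.27, 6.22 and 3.46. Without the filter, Col11a2 was called higher in betaD5 at 0.82.

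**Figure D2:**
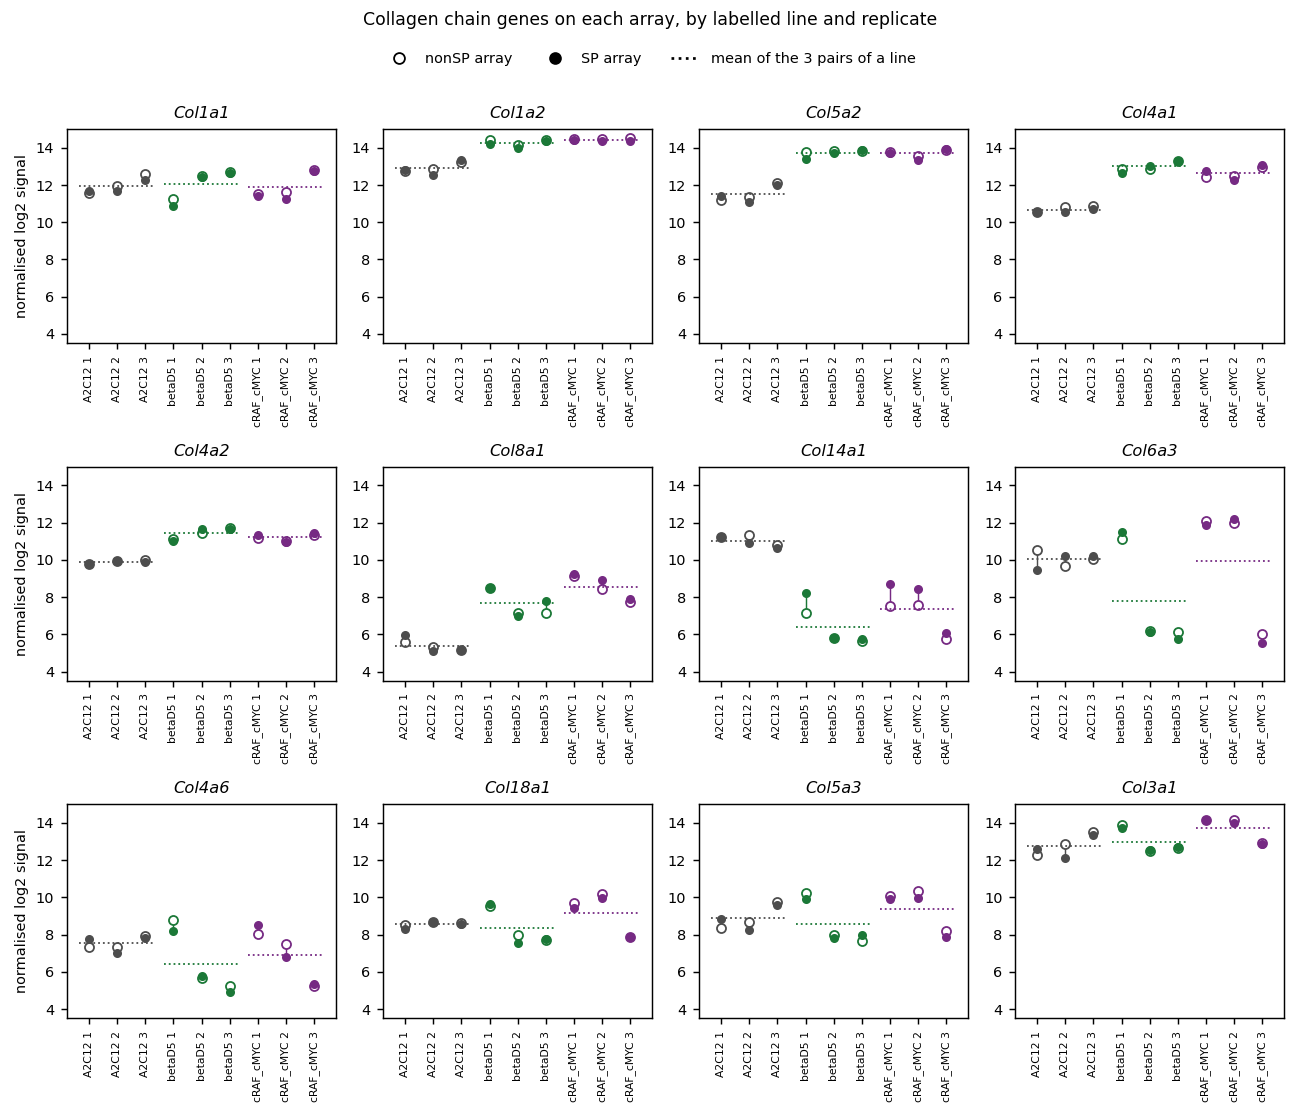
Normalised log2 signal (vertical axis) of 12 collagen genes on each array, ordered by labelled line and replicate; open circles are nonSP arrays, filled circles are SP arrays, and dotted lines are the means of the 3 pairs of a line. Col1a2, Col5a2, Col4a1 and Col4a2 are higher on every betaD5 and cRAF_cMYC array than on every A2C12 array, and Col6a3 lies near 6 on the arrays labelled betaD5 2, betaD5 3 and cRAF_cMYC 3.

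Of the 6 type IV chains, 4 were tested, and Col4a1 and Col4a2, which encode the chains of the common basement membrane network, were higher in both lines. Among all genes tested, 15.2% were called higher in betaD5 and 12.4% in cRAF_cMYC. In A2C12, Col4a1 read 10.53, 10.82 and 10.85 on the nonSP arrays and 10.54, 10.54 and 10.73 on the SP arrays. In betaD5, Col4a1 read 12.84, 12.88 and 13.31 on the nonSP arrays and 12.66, 13.03 and 13.29 on the SP arrays. In cRAF_cMYC, Col4a1 read 12.44, 12.46 and 12.96 on the nonSP arrays and 12.76, 12.29 and 13.06 on the SP arrays. The 12 arrays of betaD5 and cRAF_cMYC started more than 1 log2 unit above the highest A2C12 array. The difference for Col4a1 was 2.33 ± 0.19 (adjusted p = 7.56e-05) in betaD5, 5.03-fold, and 1.99 ± 0.19 (adjusted p = 1.94e-04) in cRAF_cMYC, 3.98-fold. Its other probe set differed by 1.68 and 1.49.

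Col4a2 encodes the partner chain of Col4a1 and is its neighbour. In A2C12, Col4a2 read 9.77, 9.96 and 9.97 on the nonSP arrays and 9.77, 9.94 and 9.88 on the SP arrays. In betaD5, Col4a2 read 11.11, 11.43 and 11.70 on the nonSP arrays and 11.01, 11.63 and 11.64 on the SP arrays. In cRAF_cMYC, Col4a2 read 11.18, 11.01 and 11.34 on the nonSP arrays and 11.31, 10.95 and 11.42 on the SP arrays. As for Col4a1, the A2C12 arrays were below all others. The difference was 1.54 ± 0.18 (adjusted p = 4.94e-04) in betaD5 and 1.32 ± 0.18 (adjusted p = 0.00128) in cRAF_cMYC. Set against the mean of the A2C12 pairs, Col4a1 on the probe set used rose by more than Col4a2 in each of the 6 pairs of the other lines. On the other Col4a1 probe set this order did not hold in the pairs labelled betaD5 1 and cRAF_cMYC 1.

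Col4a6 encodes a chain found in basement membranes of selected epithelia and smooth muscle, and was not called. In A2C12, Col4a6 read 7.32, 7.31 and 7.93 on the nonSP arrays and 7.74, 7.03 and 7.83 on the SP arrays. In betaD5, Col4a6 read 8.79, 5.65 and 5.25 on the nonSP arrays and 8.22, 5.79 and 4.93 on the SP arrays. In cRAF_cMYC, Col4a6 read 8.02, 7.51 and 5.25 on the nonSP arrays and 8.5, 6.82 and 5.36 on the SP arrays. The arrays labelled betaD5 2, betaD5 3 and cRAF_cMYC 3 were lower than every A2C12 array, and the other arrays of these lines lay on both sides of the A2C12 values. The line differences were -1.09 ± 0.91 (adjusted p = 0.4) and -0.62 ± 0.91 (adjusted p = 0.662). Its neighbour Col4a5, whose human counterpart is mutated in Alport syndrome, had pair means of 11.58, 11.35 and 12.08 in A2C12, 11.41, 12.09 and 11.83 in betaD5 and 10.92, 10.38 and 12.35 in cRAF_cMYC. Differences of 0.11 ± 0.44 (adjusted p = 0.88) and -0.46 ± 0.44 (adjusted p = 0.484) did not pass the test. The other probe set of Col4a6 differed by -0.82 in betaD5 and -0.71 in cRAF_cMYC, and that of Col4a5 by -0.25 in betaD5 and -0.77 in cRAF_cMYC. Col4a3 and Col4a4, chains of the kidney and lung alveolar membrane, were below the filter, with means over all arrays of 5.83 and 4.84.

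Type VI collagen is assembled from the products of Col6a1, Col6a2 and Col6a3, or of Col6a4 to Col6a6 in place of the last. Col6a1 and Col6a2 were higher in both lines and Col6a3 was not called. In A2C12, Col6a1 read 12.27, 12.87 and 12.90 on the nonSP arrays and 12.62, 12.35 and 12.71 on the SP arrays. In betaD5, Col6a1 read 13.42, 13.38 and 12.85 on the nonSP arrays and 13.01, 12.67 and 13.57 on the SP arrays. In cRAF_cMYC, Col6a1 read 13.22, 13.26 and 13.64 on the nonSP arrays and 13.40, 12.71 and 13.46 on the SP arrays. Here the arrays of the lines overlapped, and the pair means did not. The difference for Col6a1 was 0.53 ± 0.15 (adjusted p = 0.0291) in betaD5 and 0.66 ± 0.15 (adjusted p = 0.014) in cRAF_cMYC. In A2C12, Col6a2 read 12.17, 12.32 and 12.60 on the nonSP arrays and 12.65, 11.81 and 12.49 on the SP arrays. In betaD5, Col6a2 read 13.50, 13.20 and 12.88 on the nonSP arrays and 13.03, 12.81 and 13.41 on the SP arrays. In cRAF_cMYC, Col6a2 read 13.59, 13.25 and 13.54 on the nonSP arrays and 13.61, 12.66 and 13.33 on the SP arrays. For Col6a2 the highest A2C12 array lay just below the lowest array of the other lines. The difference for Col6a2 was 0.80 ± 0.18 (adjusted p = 0.011) in betaD5 and 0.99 ± 0.18 (adjusted p = 0.00504) in cRAF_cMYC, and 0.76 and 0.90 by its other probe set. The Col6a1 calls were lost in betaD5 after median centring and on nonSP or SP arrays alone, and in cRAF_cMYC on SP arrays alone. The Col6a2 calls were also lost on SP arrays alone.

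Col6a3 encodes the large chain that completes the type VI filament. In A2C12, Col6a3 read 10.51, 9.69 and 10.06 on the nonSP arrays and 9.47, 10.19 and 10.19 on the SP arrays. In betaD5, Col6a3 read 11.11, 6.17 and 6.15 on the nonSP arrays and 11.51, 6.13 and 5.76 on the SP arrays. In cRAF_cMYC, Col6a3 read 12.09, 12 and 6.04 on the nonSP arrays and 11.86, 12.17 and 5.53 on the SP arrays. The arrays labelled betaD5 2, betaD5 3 and cRAF_cMYC 3 lay between 5.53 and 6.17, and those labelled betaD5 1, cRAF_cMYC 1 and cRAF_cMYC 2 between 11.11 and 12.17, with A2C12 between. The line means were 10.02 ± 0.10 in A2C12, 7.80 ± 3.04 in betaD5 and 9.95 ± 3.61 in cRAF_cMYC (SD, n = 3 pairs). As labelled, the differences from A2C12 were -2.21 ± 1.78 (adjusted p = 0.383) and -0.07 ± 1.78 (adjusted p = 0.98). Col6a4 and Col6a5 were below the filter, with means over all arrays of 6.25 and 3.83.

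Chains of one collagen type changed unequally between pairs. Relative to the mean of the A2C12 pairs, Col1a2 was 1.13 to 1.51 higher in the 6 other pairs, and Col1a1 ranged from -0.90 to 0.83 on the probe set used. The other Col1a1 probe set was above its own A2C12 mean in 5 of these 6 pairs, so the range of Col1a1 depends on the probe set. Col6a1 was 0.37 to 0.93 higher in these pairs, and Col6a3 ranged from -4.23 to 2.07. In the pairs labelled betaD5 2, betaD5 3 and cRAF_cMYC 3, Col4a6 stood at -1.81, -2.44 and -2.23 on this scale and Col4a5 was 0.16 to 0.67 higher. These contrasts were chosen after their values were seen and carry no test.

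**Figure D3:**
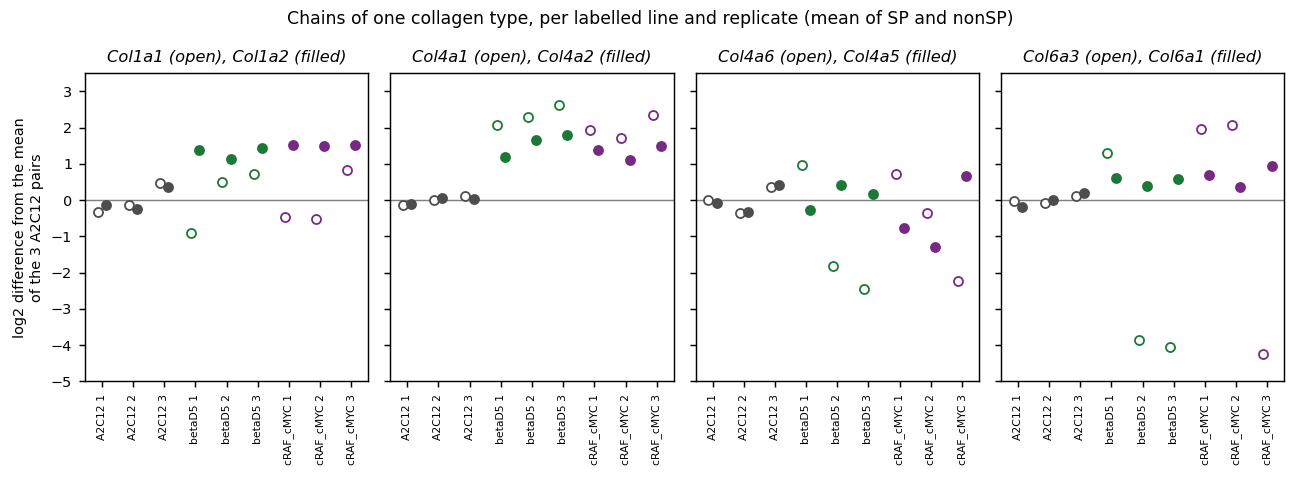
Log2 difference of each pair (horizontal axis) from the mean of the 3 A2C12 pairs for chains of one collagen type, with the first gene of each panel as open and the second as filled circles. Both type IV chains of the second panel lie above 1 in all 6 pairs outside A2C12, while Col6a3 lies near -4 in the pairs labelled betaD5 2, betaD5 3 and cRAF_cMYC 3 and Col6a1 stays between 0.37 and 0.93.

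Of the 9 FACIT chains, 6 were tested. In each line 1 was higher (Col16a1) and 1 was lower (Col14a1), and the median difference over the 6 was -0.09 in betaD5 and -0.17 in cRAF_cMYC. Among all genes tested, 15.2% were called higher and 13% lower in betaD5, and 12.4% and 10.5% in cRAF_cMYC. Col14a1 encodes collagen XIV, known to coat fibrils of dense connective tissue. In A2C12, Col14a1 read 11.23, 11.32 and 10.82 on the nonSP arrays and 11.21, 10.92 and 10.64 on the SP arrays. In betaD5, Col14a1 read 7.14, 5.78 and 5.65 on the nonSP arrays and 8.21, 5.79 and 5.73 on the SP arrays. In cRAF_cMYC, Col14a1 read 7.51, 7.57 and 5.77 on the nonSP arrays and 8.71, 8.45 and 6.05 on the SP arrays. Every A2C12 array lay above every other array. The line means were 11.02 ± 0.26 in A2C12, 6.38 ± 1.12 in betaD5 and 7.34 ± 1.24 in cRAF_cMYC (SD, n = 3 pairs). The difference was -4.64 ± 0.65 (adjusted p = 0.00117) in betaD5 and -3.68 ± 0.65 (adjusted p = 0.00425) in cRAF_cMYC. The betaD5 mean and the arrays labelled cRAF_cMYC 3 lie below the filter value of 6.54, so no fold is given. The other Col14a1 probe sets differed by -5.49 and -0.55 in betaD5 and by -4.11 and -0.27 in cRAF_cMYC.

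Col16a1 encodes a FACIT that is found in several connective tissues. In A2C12, Col16a1 read 9.62, 9.79 and 10.06 on the nonSP arrays and 9.66, 9.55 and 10 on the SP arrays. In betaD5, Col16a1 read 10.39, 10.47 and 10.53 on the nonSP arrays and 10.43, 10.29 and 10.38 on the SP arrays. In cRAF_cMYC, Col16a1 read 10.67, 10.53 and 10.45 on the nonSP arrays and 10.70, 10.33 and 10.27 on the SP arrays. No array of betaD5 or cRAF_cMYC fell to the level of an A2C12 array. The difference was 0.64 ± 0.15 (adjusted p = 0.0146) in betaD5 and 0.71 ± 0.15 (adjusted p = 0.0105) in cRAF_cMYC.

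The other 4 tested FACIT chains were not called. Col12a1 encodes collagen XII of tendon and ligament. In A2C12, Col12a1 read 9.46, 8.98 and 8.75 on the nonSP arrays and 7.94, 9 and 8.54 on the SP arrays. In betaD5, Col12a1 read 8.92, 9.27 and 9.40 on the nonSP arrays and 8.95, 9.28 and 9.23 on the SP arrays. In cRAF_cMYC, Col12a1 read 9.42, 9.06 and 9.20 on the nonSP arrays and 9.41, 8.62 and 9.23 on the SP arrays. Its values overlapped between lines, with the SP array of A2C12 1 the lowest of all. The difference was 0.40 ± 0.19 (adjusted p = 0.149) in betaD5 and 0.38 ± 0.19 (adjusted p = 0.186) in cRAF_cMYC. Its other probe sets differed by -0.13, 0.15 and 0.34 in betaD5 and by -0.23, 0.09 and 0.05 in cRAF_cMYC. Col9a1 encodes a chain of the cartilage collagen IX. In A2C12, Col9a1 read 7, 7.27 and 6.90 on the nonSP arrays and 7.14, 7.47 and 7.05 on the SP arrays. In betaD5, Col9a1 read 6.73, 7.25 and 6.88 on the nonSP arrays and 6.68, 7 and 6.71 on the SP arrays. In cRAF_cMYC, Col9a1 read 7.12, 6.79 and 7.40 on the nonSP arrays and 6.86, 6.86 and 7.14 on the SP arrays. All 18 arrays lay between 6.68 and 7.47, and the lines overlapped. The differences were -0.27 ± 0.19 (adjusted p = 0.328) and -0.11 ± 0.19 (adjusted p = 0.721). Col9a3, its partner, and Col20a1 had differences of -0.23 and 0.06 in betaD5 and of -0.22 and -0.35 in cRAF_cMYC. Col9a2, Col19a1 and Col22a1 were below the filter, with means over all arrays of 5.61, 5.10 and 6.28.

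Col8a1, a short-chain collagen of vessel walls and of the membrane under corneal endothelium, was higher in both lines and was the only chain of its class above the filter. In A2C12, Col8a1 read 5.58, 5.33 and 5.16 on the nonSP arrays and 5.96, 5.11 and 5.16 on the SP arrays. In betaD5, Col8a1 read 8.47, 7.17 and 7.14 on the nonSP arrays and 8.48, 6.99 and 7.81 on the SP arrays. In cRAF_cMYC, Col8a1 read 9.14, 8.45 and 7.73 on the nonSP arrays and 9.23, 8.92 and 7.90 on the SP arrays. The A2C12 arrays lay below 6 and the other arrays at 6.99 or above. The difference was 2.29 ± 0.42 (adjusted p = 0.00408) in betaD5 and 3.18 ± 0.42 (adjusted p = 9.94e-04) in cRAF_cMYC. The A2C12 mean of 5.39 lies below the filter value of 6.54, so Col8a1 passed the filter through the other lines and no fold is given. The other Col8a1 probe sets differed by 0.87 and 0.01 in betaD5 and by 0.88 and -0.06 in cRAF_cMYC. Col8a2, its partner, and Col10a1, the collagen of hypertrophic cartilage, were below the filter, with means of 3.98 and 6.05.

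Col18a1 encodes a basement membrane collagen whose tail is released as endostatin. In A2C12, Col18a1 read 8.51, 8.67 and 8.63 on the nonSP arrays and 8.31, 8.70 and 8.58 on the SP arrays. In betaD5, Col18a1 read 9.53, 7.98 and 7.70 on the nonSP arrays and 9.65, 7.54 and 7.75 on the SP arrays. In cRAF_cMYC, Col18a1 read 9.71, 10.20 and 7.87 on the nonSP arrays and 9.43, 9.97 and 7.87 on the SP arrays. The arrays labelled betaD5 1, cRAF_cMYC 1 and cRAF_cMYC 2 lay above A2C12, and the arrays labelled betaD5 2, betaD5 3 and cRAF_cMYC 3 below it. As labelled, the differences were -0.21 ± 0.61 (adjusted p = 0.826) and 0.61 ± 0.61 (adjusted p = 0.503), so neither passed the test. The other Col18a1 probe set differed by 0.21 in betaD5 and 0.81 in cRAF_cMYC. Col15a1, the related chain, was below the filter with a mean of 6.43.

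Col7a1 encodes the anchoring fibril that ties epithelium to the tissue beneath. In A2C12, Col7a1 read 8.15, 8.56 and 8.64 on the nonSP arrays and 8.20, 8.65 and 8.91 on the SP arrays. In betaD5, Col7a1 read 8.70, 8.41 and 8.38 on the nonSP arrays and 8.93, 8.37 and 8.17 on the SP arrays. In cRAF_cMYC, Col7a1 read 8.89, 9.22 and 8.26 on the nonSP arrays and 8.61, 9.35 and 8.02 on the SP arrays. The lines overlapped, with differences of -0.02 ± 0.29 (adjusted p = 0.961) and 0.21 ± 0.29 (adjusted p = 0.646). Col25a1 encodes a transmembrane collagen first described in brain. In A2C12, Col25a1 read 8.18, 7.86 and 7.86 on the nonSP arrays and 8.04, 8.06 and 8.08 on the SP arrays. In betaD5, Col25a1 read 7.41, 7.95 and 8.15 on the nonSP arrays and 7.52, 7.67 and 7.63 on the SP arrays. In cRAF_cMYC, Col25a1 read 7.91, 7.36 and 7.68 on the nonSP arrays and 7.73, 7.36 and 7.47 on the SP arrays. Its values also overlapped, with differences of -0.29 ± 0.17 (adjusted p = 0.237) and -0.43 ± 0.17 (adjusted p = 0.111). The other transmembrane chains, Col13a1, Col17a1 and Col23a1, were below the filter with means of 4.95, 4.49 and 5.20, as was Col26a1 with 4.69. With no filter, 14 of the 42 genes were called in betaD5, where 17.6% of all genes were called (9.2% higher and 8.4% lower), and 11 of 42 in cRAF_cMYC, where 14.6% were (7.29% higher and 7.31% lower). That fit added Col11a2 (0.82), Col19a1 (0.87), Col17a1 (-0.98) and Col26a1 (-0.65) in betaD5, and Col17a1 (-0.90) in cRAF_cMYC.

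With the pairs labelled betaD5 1 and cRAF_cMYC 3 left out, which leaves 2 pairs in each of these lines, 17 of the 24 genes differed from A2C12 in betaD5 and 16 in cRAF_cMYC, of which 12 and 13 were higher. In these fits 45% of all genes were called in betaD5 (23.4% higher and 21.5% lower) and 36.1% in cRAF_cMYC (19.7% higher and 16.4% lower). The decision to leave these pairs out came from the same arrays, so the larger counts are no independent support. Col1a2, Col5a2, Col4a1, Col4a2 and Col8a1 kept their direction, with differences of 1.29, 2.25, 2.46, 1.72 and 1.89 in betaD5. Col14a1 was -5.29 in betaD5 and -2.96 in cRAF_cMYC. Among the added calls, Col6a3 was -3.97 ± 0.15 (adjusted p = 2.17e-08) in betaD5 and 2.01 ± 0.15 (adjusted p = 4.59e-06) in cRAF_cMYC. Col18a1 was -0.83 and 1.26, and Col5a3 was -1.06 and 1.18.

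Between cRAF_cMYC and betaD5 as labelled, 0 of the 24 collagen genes and 0 of all 10916 genes (0%) were called by limma. At an unadjusted p under 0.05 there were 0 collagen genes and 110 genes in all. The largest labelled difference, that of Col6a3, was 2.14 with a 95% interval of -1.87 to 6.16. Without the pairs labelled betaD5 1 and cRAF_cMYC 3, 12 of 24 were called, 7 higher and 5 lower in cRAF_cMYC, where 22.2% of all genes were called (12.6% higher and 9.55% lower). The higher genes were Col6a3 (5.98), Col14a1 (2.32), Col4a6 (2.31), Col5a3 (2.23), Col18a1 (2.09), Col8a1 (1.65) and Col3a1 (1.51). The betaD5 pairs 2 and 3 of Col6a3, Col14a1 and Col4a6 lay below the filter value of 6.54, so no folds are given. The lower genes were Col4a5 (-1.31), Col1a1 (-1.10), Col20a1 (-0.95), Col27a1 (-0.77) and Col4a1 (-0.64). With all pairs kept as labelled, none of these 12 passed the test. Both pairs were left out because their arrays resembled the other of these lines. A larger difference between the remaining pairs was therefore built into the choice, and these calls are no independent support for a line difference.

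The study's own question was how SP cells differ from nonSP cells, and no collagen gene passed the test in that comparison. In A2C12, betaD5, cRAF_cMYC, their mean and the F test of a difference between lines, 0 of 24 collagen genes and 0% of all genes were called by limma. At an unadjusted p under 0.05 there were 1 collagen gene in A2C12 (Col12a1) and 0 in each of betaD5, cRAF_cMYC and the mean, against 9, 116, 77 and 143 of all genes. With the replicate block, which compares SP and nonSP within pairs, 0 were again called, and 1, 2, 1 and 5 collagen genes had an unadjusted p under 0.05, against 201, 1159, 862 and 1368 of all genes. At that unadjusted p the F test gave 0 collagen genes and 8 genes in all without the block, and 1 collagen gene (Col14a1) and 348 genes in all with it. The 95% interval of a collagen difference reached a median of 0.60 to either side in A2C12, or 0.26 with the block. Averaged over lines, these widths were 0.35 and 0.15. With the pairs labelled betaD5 1 and cRAF_cMYC 3 left out, the block again called 0 collagen genes, with 0.147% of all genes called in betaD5 and 0% in each other comparison.

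**Figure D4:**
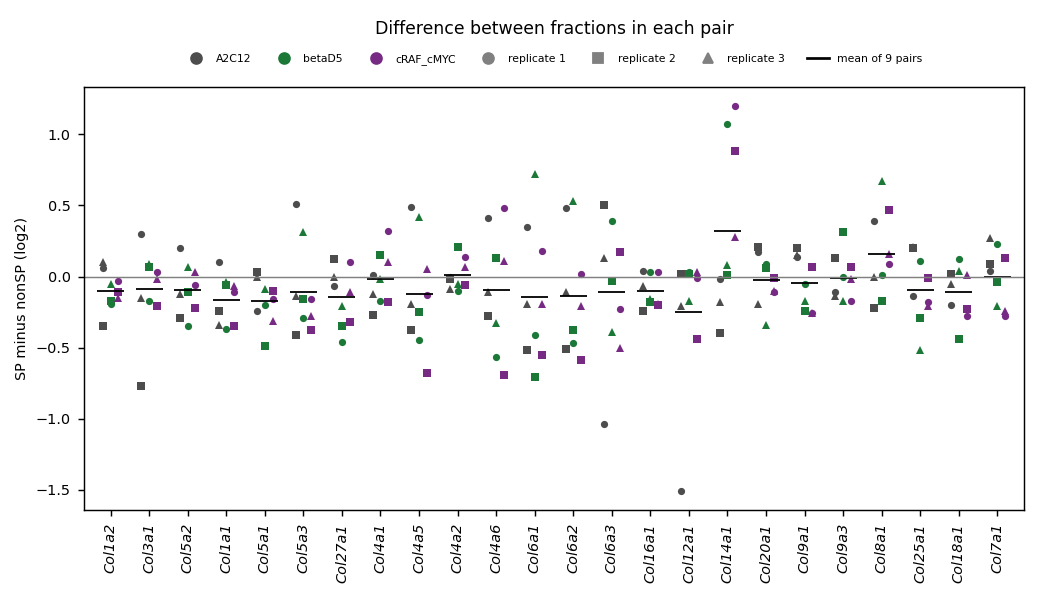
SP minus nonSP log2 difference (vertical axis) of the 24 collagen genes above the filter in each of the 9 pairs; colours are lines, symbols are replicate numbers and black bars are means of the 9 pairs. Most points lie within 0.5 of 0, and Col14a1 reaches 1.20 in cRAF_cMYC 1 and 1.07 in betaD5 1.

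Col14a1 had the largest SP minus nonSP difference of the 24 genes in cRAF_cMYC. SP minus nonSP was 1.20, 0.88 and 0.28 in the cRAF_cMYC pairs, 1.07, 0.01 and 0.08 in the betaD5 pairs and -0.02, -0.40 and -0.18 in the A2C12 pairs. It was above 0 in all pairs of cRAF_cMYC and betaD5 and below 0 in all A2C12 pairs. On the arrays labelled betaD5 2, betaD5 3 and cRAF_cMYC 3, Col14a1 read only 5.65 to 6.05, below the filter value. The signs of these pairs therefore carry little weight. The mean difference in cRAF_cMYC was 0.79 with an SE of 0.73 without the block (limma adjusted p rounding to 1.0) and of 0.21 with it (limma adjusted p = 0.447). The betaD5 mean of 0.39 was 0.04 without the pair labelled betaD5 1.

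Col1a1, Col1a2, Col5a1 and Col5a3 had SP values a little below nonSP values in most pairs, without passing the test. They were picked after their values were seen. Col1a1 was lower in 8 of 9 pairs, with a mean of -0.16 (SE 0.06 with the block, limma adjusted p = 0.314). Col5a1 was lower in all 3 pairs of betaD5 (-0.20, -0.49 and -0.09) and of cRAF_cMYC (-0.16, -0.10 and -0.31) and read -0.24, 0.03 and 0 in A2C12. Its mean over the lines was -0.17 (SE 0.06 with the block, limma adjusted p = 0.287). Col1a2 and Col5a3 were higher in 2 of 9 pairs each. Over the 24 genes, 4 were higher in SP in 2 or fewer of the 9 pairs, which is near the share of 14% among all genes. In 7 or more pairs 0 of the 24 were higher, against 14.1% of all genes.

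Within pairs, between 6 and 16 of the 24 genes were higher in SP. The count was 16, 10 and 7 in A2C12, 9, 8 and 9 in betaD5, and 10, 6 and 9 in cRAF_cMYC, while the share of all genes higher in SP ran from 44.7% to 54.3% over the pairs. Of the means over the lines, 3 of 24 were above 0, against 48.1% of all genes. After centring on array medians in place of quantile normalisation, these were 6 of 24 and 65.5%. In betaD5 the count above 0 moved from 5 to 13 of 24 with that centring, and the share of all genes from 49.1% to 70.6%.

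Col27a1 was lower in SP in all betaD5 pairs, at -0.46, -0.35 and -0.21, with a mean of -0.34 (SE 0.10 with the block, limma adjusted p = 0.381). Col25a1 read 0.11, -0.29 and -0.52 there, with a mean of -0.23. The SP arrays labelled betaD5 2 and betaD5 3 had the highest 3′ over 5′ log2 differences of Gapdh, 0.76 and 0.97 against -0.08 to 0.56 on the other arrays, a measure of RNA quality. With the mean of the Gapdh and Actb ratios as a covariate beside the block the Col25a1 difference was 0.05 on the log2 scale.

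In A2C12 the smallest p belonged to Col12a1, at -1.51, 0.02 and -0.21 in the pairs, and its mean of -0.57 was -0.10 without pair 1. Col9a1 was higher in SP in all A2C12 pairs, at 0.14, 0.20 and 0.15, and lower in all betaD5 pairs, at -0.05, -0.24 and -0.17. Col4a1 read 0.01, -0.27 and -0.12 in A2C12. In cRAF_cMYC, Col6a2 read 0.02, -0.59 and -0.21, with a mean of -0.26. Col16a1 had a mean of -0.10 over the lines and was lower in 6 of 9 pairs. None of these passed the test, and each limma adjusted p for them without the block rounded to 1.0. The fit without the block counts the spread between pairs as error. With the block, the limma adjusted p was 0.9996 for Col12a1, Col9a1 and Col4a1 in A2C12. It was 0.559 for Col9a1 in betaD5, 0.828 for Col6a2 in cRAF_cMYC and 0.459 for Col16a1 over the lines.

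Genes that modify and fold collagen chains were lower where they passed the test between lines after quantile normalisation, while on the values as deposited some passed as higher. Of 17 tested, 0 were higher and 7 lower in betaD5 than in A2C12, and 0 higher and 4 lower in cRAF_cMYC, with medians of -0.43 and -0.33. Of all genes tested, 28.2% were called in betaD5 (13% lower) and 22.9% in cRAF_cMYC (10.5% lower). The prolyl hydroxylase gene P3h2 had pair means of 9.98, 10.04 and 9.39 in A2C12, 6.90, 6.5 and 6.28 in betaD5 and 7.28, 6.99 and 5.92 in cRAF_cMYC. The A2C12 pairs lay above all others, with differences of -3.24 ± 0.35 (adjusted p = 3.33e-04) and -3.07 ± 0.35 (adjusted p = 5.17e-04). P4ha3, a prolyl hydroxylase subunit that stabilises the helix, differed by -1.57 ± 0.38 (adjusted p = 0.0144) and -1.96 ± 0.38 (adjusted p = 0.00625). Plod1, a lysyl hydroxylase that prepares crosslinks, differed by -1.47 ± 0.17 (adjusted p = 5.11e-04) and -1.34 ± 0.17 (adjusted p = 9.45e-04). P4ha2, a related subunit, differed by -0.99 ± 0.27 (adjusted p = 0.0241) in betaD5. On the values as deposited the count turned to 4 higher and 2 lower in betaD5 and to 1 higher and 3 lower in cRAF_cMYC, with medians of 0.24 and 0.09 against 0.72 and 0.46 over all genes. On that scale 53.4% of all genes were called higher and 2.2% lower in betaD5, and 25.9% and 2.51% in cRAF_cMYC. P3h2 and Plod1 were still called lower in both lines.

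Of 8 tested genes of propeptide removal and crosslinking, 0 were higher and 1 lower in betaD5, and 1 higher and 1 lower in cRAF_cMYC, where 28.2% and 22.9% of all genes were called. Loxl4, a lysyl oxidase that starts crosslinks, differed by -0.78 ± 0.25 (adjusted p = 0.0414) and -0.98 ± 0.25 (adjusted p = 0.0202). Pcolce, an enhancer of propeptide cleavage, was higher in cRAF_cMYC by 0.32 ± 0.08 (adjusted p = 0.0168). Among 5 tested collagen receptors, 2 were lower in betaD5 and 0 passed the test in cRAF_cMYC, where again 28.2% and 22.9% of all genes were called. The tyrosine kinase receptor Ddr2 differed by -1.21 ± 0.29 (adjusted p = 0.0145) and the integrin subunit Itga1 by -1.11 ± 0.24 (adjusted p = 0.00883) in betaD5. In cRAF_cMYC they stood at -0.75 ± 0.29 (adjusted p = 0.0971) and -0.69 ± 0.24 (adjusted p = 0.0665). As deposited, the calls of Loxl4, Ddr2 and Itga1 were lost and Pcolce was called in both lines. Loxl3 was then also called higher in both lines, Sparc in betaD5 and Loxl1 in cRAF_cMYC. Of the receptors, Ddr1 and Itgb1 were then called higher in betaD5, by 1.08 and 1.03. On that scale 53.4% of all genes were called higher in betaD5 and 25.9% in cRAF_cMYC.

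Of 11 tested genes of collagen breakdown, 1 was higher and 2 lower in betaD5, and 2 higher and 2 lower in cRAF_cMYC, beside 28.2% and 22.9% called among all genes. Mmp2, which encodes a gelatinase that cuts denatured collagen and type IV collagen, had pair means of 8.52, 8.44 and 9 in A2C12, 11.12, 10.73 and 10.84 in betaD5 and 11.33, 11.50 and 10.94 in cRAF_cMYC. No pair of the other lines overlapped A2C12, and the differences were 2.24 ± 0.21 (adjusted p = 1.67e-04) and 2.60 ± 0.21 (adjusted p = 8.20e-05). Mmp3, a stromelysin, was higher in cRAF_cMYC by 1.5 ± 0.44 (adjusted p = 0.0373). Pepd, which recycles proline from collagen fragments, was lower in both lines, with differences of -1.12 ± 0.12 (adjusted p = 3.77e-04) and -1.07 ± 0.12 (adjusted p = 6.18e-04). Timp3, a metalloproteinase inhibitor, differed by -0.99 ± 0.32 (adjusted p = 0.0498) in cRAF_cMYC. As deposited, the calls of Pepd and of the inhibitors Timp2 and Timp3 were lost, and those of Mmp2 and Mmp3 were kept. Mmp13 was then called higher in both lines, by 2.81 in betaD5 and 2.46 in cRAF_cMYC, and Timp1 in betaD5, by 0.95. These calls stand beside 53.4% and 25.9% of all genes called higher on that scale. With the pairs labelled betaD5 1 and cRAF_cMYC 3 left out, the counts higher and lower in betaD5 were 0 and 9 for modification and folding, 1 and 2 for propeptide removal and crosslinking, 0 and 3 for receptors and 2 and 4 for breakdown. In cRAF_cMYC they were 0 and 6, 3 and 2, 0 and 1, and 4 and 2. In these fits 45% and 36.1% of all genes were called. None of the genes of these 4 lists passed the test between SP and nonSP.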

How the data were processed

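Gene expression was measured on Affymetrix 3′ arrays in 6 groups of 3. Per the submitters' processing notes, Affymetrix Expression Console was used, and its version, algorithm and normalisation are not given in the sources used here. The authors deposited a log2 signal for each of 45101 probe sets on each of 18 arrays. Of these, 64 control probe sets were left out, 34945 had 1 gene symbol, 932 had several and were not named, and 9160 had none, while 34741 symbols were matched to current names by gene identifier. Arrays give signals, not counts, and their number limits the precision.

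Values were quantile normalised, each gene took its probe set with the highest mean, and the lowest 40% of genes (mean under 6.54) were left out. limma 3.58.1 in R 4.3.3 (lmFit, contrasts.fit, eBayes with trend) fitted 9 means of SP and nonSP for lines (6 residual degrees of freedom) and all 18 arrays for SP minus nonSP (12). All tests were two-sided, with a call set at 0.05 after Benjamini-Hochberg adjustment over all genes. Deviations of same-numbered SP and nonSP arrays correlated at 0.425 to 0.954 in the 9 pairs, and 8 of 9 matched their own number best, so the numbers were taken as pairing. The fits were tested on simulated data. The simulated spreads came from the A2C12 arrays alone, so the spread within betaD5 and cRAF_cMYC was not simulated.

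The members, gene lists and tests were chosen with earlier results of these data known. Every collagen gene is named. Array values are printed for the 10 with the widest range of line means, the 3 with the smallest p in each SP comparison, and the one with the highest mean in each class. The up to 4 called genes of each other list with the largest differences are named. Alternatives were values as deposited, median centring, other filters, other uses of probe sets, no variance trend, SP or nonSP arrays alone, the block, the pairs labelled betaD5 1 and cRAF_cMYC 3 left out, and each array or pair left out.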

Additional observations from a re-analysis of the deposited data

Results flagged for a closer look

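SP minus nonSP of Col14a1 had one sign in every A2C12 pair and the other sign in every pair of both other lines. The arrays labelled betaD5 2, betaD5 3 and cRAF_cMYC 3 read only 5.65 to 6.05 for Col14a1, below the filter value. The signs of these pairs therefore carry little weight, and the A2C12 1 pair read only -0.02. The betaD5 pairs read 1.07, 0.01 and 0.08, and without the pair labelled betaD5 1 their mean was 0.04. Over all pairs the mean was -0.20 in A2C12 and 0.39 in betaD5, a difference of 0.59, and 0.79 in cRAF_cMYC, a difference of 0.99 from A2C12. The limma F test of a difference between lines gave an adjusted p rounding to 1.0, and with the replicate block an adjusted p of 0.999. SP minus nonSP of Col9a1 was 0.16 in A2C12 and -0.15 in betaD5, a difference of -0.32, with opposite signs in all pairs of both lines. Its limma F test gave an adjusted p rounding to 1.0, or 0.999 with the block. Each line has 3 pairs.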

How the results depend on the processing

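With the pairs labelled betaD5 1 and cRAF_cMYC 3 left out, the collagen genes called numbered 17 in betaD5 minus A2C12, 16 in cRAF_cMYC minus A2C12 and 12 in cRAF_cMYC minus betaD5, against 11, 10 and 0. The shares of all genes called rose beside them, to 45%, 36.1% and 22.2% from 28.2%, 22.9% and 0%. The choice of these pairs came from the same arrays. The other alternatives gave collagen counts within 1.5 times of 11 and 10, and 0 between cRAF_cMYC and betaD5. Shares of all genes are not given for the counts below, so a change in them cannot be read as one of collagen genes alone. Leaving out 1 pair at a time gave 7 to 11, 8 to 12 and 0 calls. The count of 7 came without the pair labelled betaD5 3. For single genes, leaving out a pair lost the betaD5 call of Col27a1 in 5 of 9 settings, of Col6a1 in 4, of Col16a1 in 3 and of Col5a1 in 1, and the cRAF_cMYC call of Col5a1 in 2 and of Col6a1 in 1. The SP comparisons gave 0 collagen calls in all settings run, the replicate block with and without the filter, the RNA quality covariate and every array or pair left out included. The block made 0 collagen calls in each SP comparison, so the pairing changed no call. Col25a1 in betaD5 turned from -0.23 to 0.0501 with the block and the 3′ over 5′ covariate, and Col6a2 in cRAF_cMYC ranged from -0.467 to 0.0114 when 1 array or pair was left out. With median centring 10 and 10 collagen genes were called between A2C12 and the other lines. The median half-width of a 95% interval for a collagen gene between lines was 0.55, so smaller line differences could seldom be told from 0.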
